A study of Rattus norvegicus with 72 samples.

Results

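The genes described here are 41 rat DNA repair and damage signalling genes, taken as every probe set whose gene symbol on the array is one of them. Of 14218 genes and 31099 probe sets on the array, 39 of the genes and 51 probe sets were among them, and Atm and Rrm2b were not analysed here. After a filter on low values, 46 probe sets of 36 genes entered the tests. The genes were grouped by role into direct reversal of damage, base excision, nucleotide excision and mismatch repair, double-strand break repair, damage kinases, lesion bypass and nucleotide supply.

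Cells meet DNA damage with separate repair routes. Small altered bases are cut out by a glycosylase and the gap is filled by polymerase and ligase. Bulky adducts are excised with a stretch of the strand around them, some methylated bases are restored directly, and lesions still in place at replication can be copied past by specialised polymerases. Hepatocytes turn many foreign compounds into reactive metabolites, so the liver is a main site of such adducts.

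The arrays measured mRNA of primary rat hepatocytes, isolated by collagenase perfusion and grown as monolayers, with 3 arrays for each of 16 treated groups and 8 control groups. The genotoxic carcinogens were aflatoxin B1 (AFB) at 19 nM, the tobacco nitrosamine NNK at 625 µM and 2-nitrofluorene (2NF) at 78 µM. The non-genotoxic carcinogens were Wy-14643 (WYE), a peroxisome proliferator, at 250 µM, piperonyl butoxide (PIPB) at 13.4 µM and methapyrilene (MPH) at 8.5 µM. The non-carcinogens were nifedipine (NIF) at 156 µM and clonidine (CND) at 277 µM. Exposure lasted 24 h or 72 h. WYE, CND and AFB shared one set of controls, 2NF, PIPB and NIF shared another, and NNK and MPH had their own. The labels speak of independent experiments for each compound, but do not say what the D number that marks each experiment stands for.

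Array medians lay between 15.76 and 23.8 intensity units, and 17.4% to 23.9% of values on each array were at or under the floor of 3.117. The 3′ to 5′ actin probe ratio, a measure of RNA integrity, was 1.84 to 2.71 on the log2 scale on 10 arrays and 0.36 to 1.11 on the other 62. Those 10 were the 8 arrays of D number 3 (replicate 3 of WYE, CND, AFB and their controls at both times), AFB 24 h replicate 1 and AFB 72 h replicate 2. With them left out, AFB kept only replicate 2 at 24 h and replicate 1 at 72 h. Arrays were scored on the probe sets that changed with time in the other controls, in units of their mean change from 24 h to 72 h. In 4 pairs of D number 3 the array labelled 72 h scored below that labelled 24 h (-0.50 ± 0.129, SD). The difference was 0.691 ± 0.238 in 23 other pairs. The labels were kept as given, and results of AFB and WYE are given also without D number 3. A mean over both times is the same if the 2 times of those arrays are exchanged.

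Markers of other liver cells moved with some treatments. Of 14 macrophage markers, 12 were higher at 24 h and 13 at 72 h of AFB (median log2 difference 0.69 and 1.04), with summed intensities of 1516 to 2689 at 24 h and 1729 to 2372 at 72 h, against 795.8 to 1599 and 837.0 to 1399 in controls. With 2NF 1 of 14 was higher at each time (medians -0.61 and -1.07), with sums of 826.5 to 1350 at 24 h and 571.1 to 1269 at 72 h, against 1144 to 1919 and 939.7 to 2058 in controls. With WYE 1 of 14 was higher at each time (medians -0.77 and -1.72), with sums of 356.3 to 1314 at 24 h and 484.9 to 790.8 at 72 h, against 795.8 to 1599 and 837.0 to 1399 in controls. With NIF 1 of 14 was higher at each time (medians -0.34 and -1.42), with sums at 72 h of 541.2 to 1199, against 939.7 to 2058 in controls. Of these markers 5 fell with WYE at 72 h, 3 with NIF at 72 h and Aif1 with 2NF over both times (-1.58, adjusted p = 0.0198). NNK gave medians of -0.12 and 0.21, and no macrophage marker was at the floor throughout a group. Of 11 hepatocyte markers, 4 fell with WYE at 72 h, with sums of 28130 to 33650, against 37920 to 46230 in controls. Ahsg fell with 2NF at 24 h, with sums of 37660 to 44620, against 47260 to 63900 in controls. At 72 h of 2NF the sums, 37750 to 45650, overlapped with 36100 to 43200 in controls. Pck1 rose with AFB at 24 h (3.09) and 72 h (3.26) and with NNK at 72 h (2.81), and fell with NIF at 72 h (-2.26). Of 9 stellate cell markers, 8 were higher with AFB at 72 h (median 0.83), with none called. The part of these shifts in the results for repair genes was not tested. In such mixed RNA, fewer cells of a type and less RNA per cell cannot be told apart.

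A probe set was called when its difference from the same-time control had an adjusted p under 0.05, from limma across 18048 probe sets with Benjamini-Hochberg adjustment within each comparison. Differences are on the log2 scale with their standard error, and n = 3 arrays a group. For AFB at 72 h the median absolute difference of the repair probe sets was 0.28, against 0.259 of all. It was 0.276 against 0.275 for WYE and 0.177 against 0.252 for NIF at 72 h. The calls fell on a few genes. Over all arrays AFB gave the most calls, with 2 of 46 repair probe sets higher at 24 h, where 3.33% of all probe sets were called (1.8% as higher). At 72 h 5 were higher and 1 lower, where 4.91% of all were called (2.78% higher and 2.13% lower). One of the 5, Rev1 1398494_at, passed the filter only through AFB 24 h, AFB 72 h and NNK 72 h, the groups where it is high, and supports nothing, which leaves 4. With 1 array left out, calls at 72 h ranged from 1 to 8 for AFB and from 1 to 9 for WYE, so the order is not firm. With the high-actin arrays left out, only replicate 2 of AFB at 24 h and replicate 1 at 72 h remain, so AFB cannot be ranked there. WYE and NNK at 72 h then had 7 and 5 calls (12.5% and 10.7% of all). NNK gave 0 calls at 24 h (0.92% of all, 3 repair probe sets with an unadjusted p under 0.05) and 1 rise at 72 h (3.32% of all), or 2 with the replicate number as a block (7.18% of all). 2NF gave 1 rise at 24 h (1.13% of all, 2 with the block, where 3.27% of all were called) and 0 calls at 72 h (0.809% of all, 6 at an unadjusted p under 0.05, 1 call with the block, where 1.69% of all were called).

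Of the carcinogens that are not genotoxic, WYE gave 0 calls at 24 h (0.0443% of all, 5 at an unadjusted p under 0.05, 2 calls with the block, where 0.56% of all were called) and 2 rises and 3 falls at 72 h (7.31% of all, 2.82% higher and 4.49% lower). NIF gave 0 calls at 24 h (0.46% of all, 3 unadjusted) and 1 fall at 72 h (3.18% of all, 2 with the block, where 7.78% of all were called). PIPB, MPH and CND gave 0 repair calls at both times in limma. The shares of all probe sets called there were 0.0887% and 0% for PIPB, 0% and 0% for MPH, and 0.0166% and 0.0332% for CND, at 24 h and 72 h. At an unadjusted p under 0.05 those 3 compounds had 0 and 0, 3 and 3, and 6 and 6 repair probe sets.

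The medians of the 46 repair probe sets stayed close to those of all probe sets. At 72 h the repair median was 0.08 for AFB, 0.04 for NNK, -0.05 for 2NF, 0.07 for WYE and -0.06 for NIF. The medians of all probe sets were 0.01, -0.01, -0.07, -0.03 and -0.07 in the same order of compounds. Fitted on the arrays of the comparison alone instead of all 72, AFB at 24 h, AFB at 72 h and WYE at 72 h each had 0 repair calls in limma. The share of all probe sets called in those fits is not given here. A general loss of calls thus cannot be told from one of repair genes. Single repair genes spread far more widely than the medians, between -0.88 (Chek2, not called) and 1.52 (Mgmt) in AFB at 72 h. Groups free of overlap with their controls were not rare. For AFB this held for 12.5% and 12.3% of all probe sets at 24 h and 72 h. The shares were 21.3% and 28.4% for NNK, 23.2% and 22.4% for 2NF, 9.02% and 13.8% for WYE, and 18.5% and 33.7% for NIF. Repair shares, in the same order, were 10.9% and 21.7%, 19.6% and 34.8%, 32.6% and 30.4%, 10.9% and 21.7%, and 21.7% and 37%. A lack of overlap below is a description of the values.

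**Figure D1:**
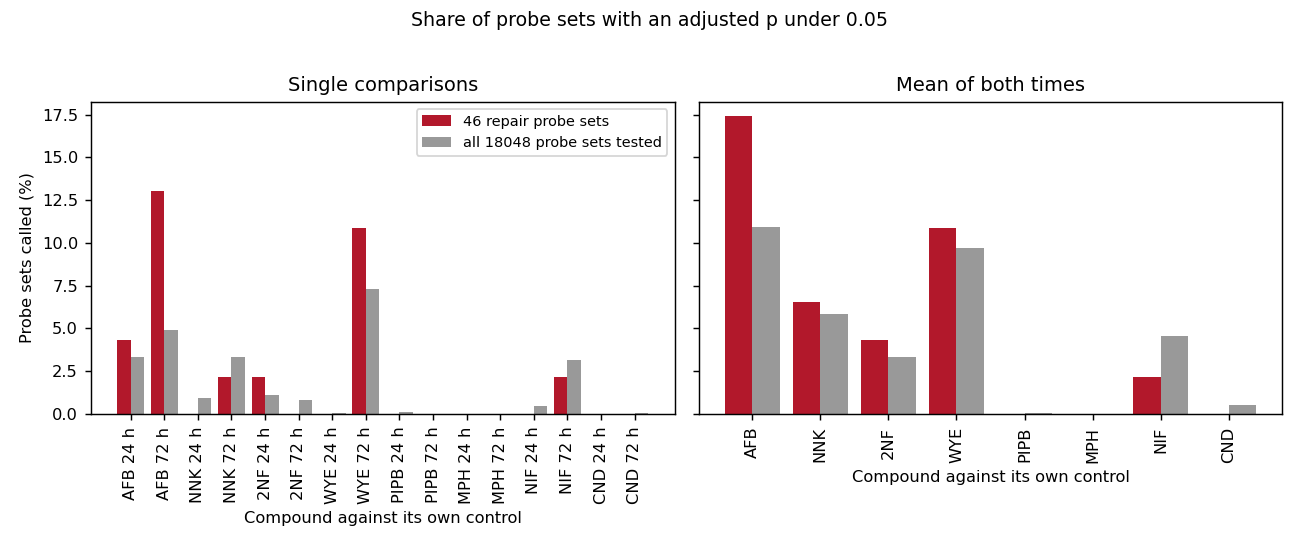
Share of the 46 repair probe sets (coloured bars) and of all 18048 probe sets tested (grey bars) that were called in each comparison with the controls, in percent, for single times and for the mean of both times. Repair shares stand above those of all probe sets for AFB at 24 h (4.35%, 2 probe sets, against 3.33%) and at 72 h. They do so too for the AFB mean of both times (17.4% against 10.9%). The AFB shares at 72 h and for the mean include the Rev1 probe set that the filter picked through its high groups. Repair shares are also above for 2NF at 24 h (2.17%, 1 probe set, against 1.13%), WYE at 72 h (10.9% against 7.31%) and the means of NNK, 2NF and WYE. They are below for NNK at both times, NIF, CND, PIPB at 24 h and the means of PIPB and MPH. For 2NF at 72 h and WYE at 24 h they are 0% against 0.809% and 0.0443%. These gaps were not tested.

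**Figure D2:**
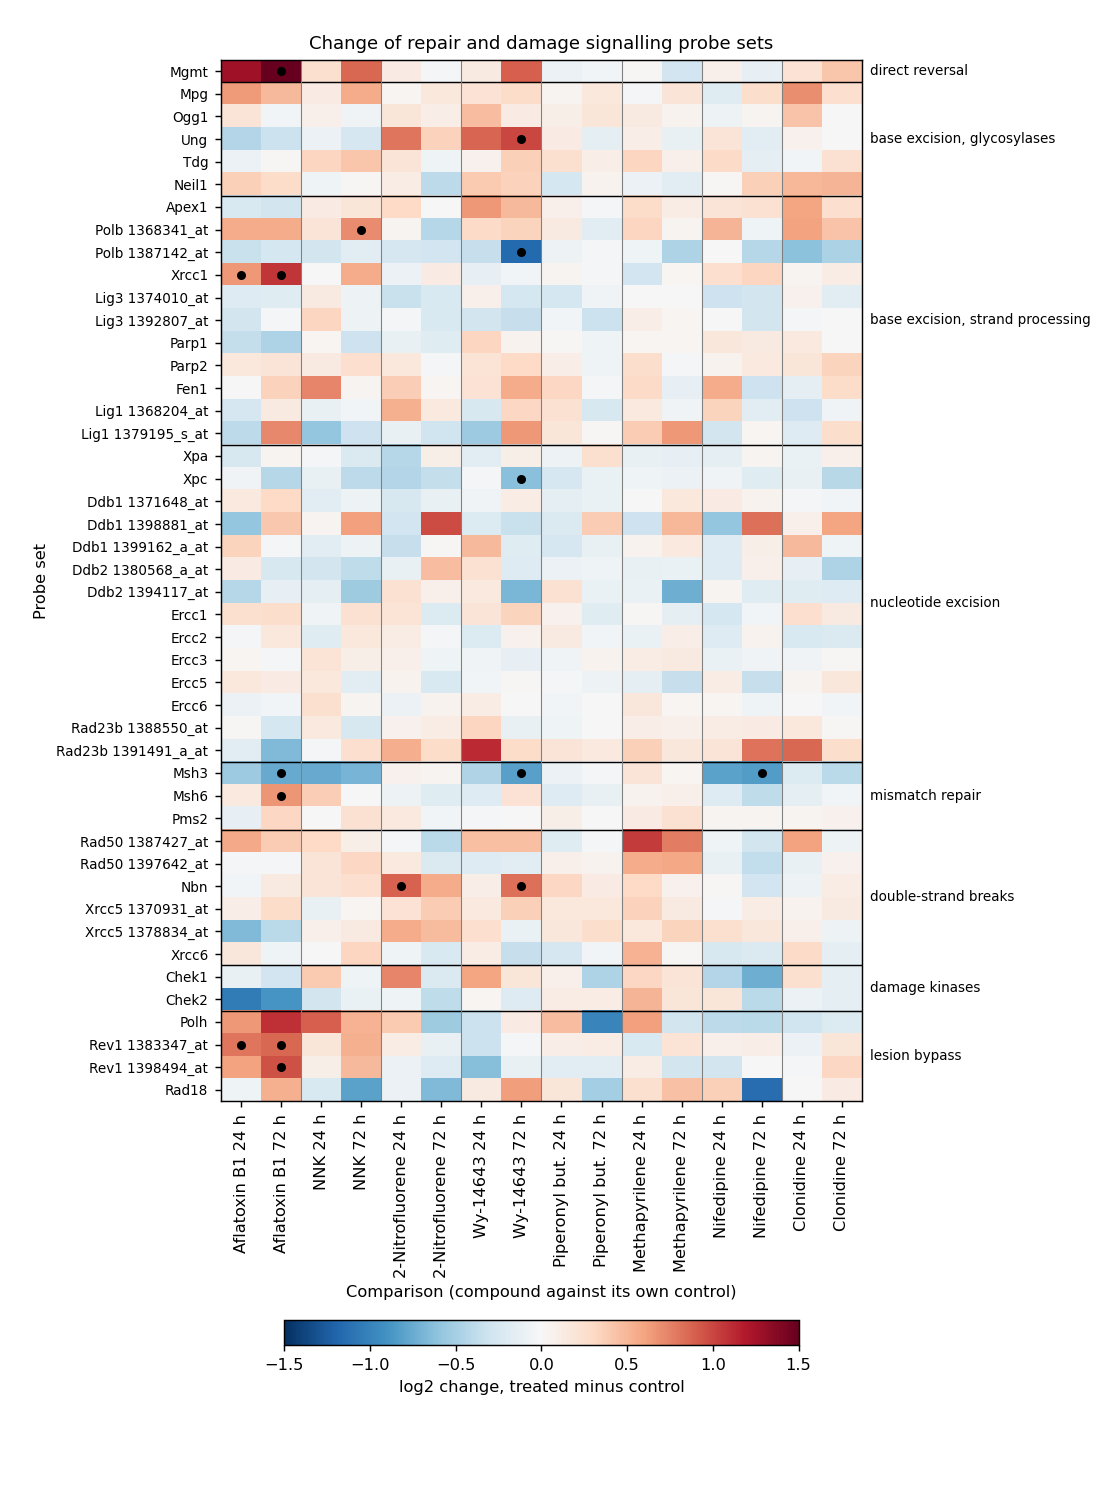
Log2 difference from the same-time control (colour) for each of the 46 repair probe sets in the 16 comparisons, with dots on adjusted p under 0.05. Xrcc1, Mgmt and Rev1 stand out in the AFB columns, Msh3 is low in AFB, NNK, WYE and NIF, and Nbn is high in 2NF and WYE.

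Direct reversal was measured through Mgmt, the methyltransferase that takes alkyl groups off guanine and is used up in doing so. Its probe set read 1403, 968.7 and 2234 after AFB for 24 h, against 380.1, 461.3 and 1224 in controls. After AFB for 72 h it read 1559, 1872 and 1584, against 638.9, 379.9 and 810.1 in controls. The 24 h groups overlapped through control replicate 3, of D number 3, and the 72 h groups did not overlap. The difference was 1.27 ± 0.43 at 24 h (adjusted p = 0.0943) and 1.52 ± 0.43 at 72 h (adjusted p = 0.0243), a fold of 2.86. Over both times Mgmt rose by 1.40 ± 0.30 (adjusted p = 0.000862), and by 1.64 without D number 3 (adjusted p = 0.000416). The 72 h call was lost when control replicate 1, control replicate 2 or AFB replicate 2 was left out. Without the arrays of high actin ratio, which keeps only AFB replicate 1 at 72 h, the difference was 1.66.

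NNK, which methylates DNA once it is activated, left Mgmt short of the threshold. After NNK for 72 h Mgmt read 1341, 1612 and 1128, against 784.2, 729.1 and 711.9 in controls, and the groups did not overlap. The difference of 0.86 ± 0.43 had an adjusted p of 0.321. At 24 h the values were 838.8, 902.7 and 339.0 with NNK and 795.5, 671.6 and 291.5 in controls, so that replicate 3 was low in both groups. With 2NF for 72 h Mgmt read 799.3, 611.9 and 744.6, against 770.6, 679.0 and 727.7 in controls, with overlap. The AFB effect exceeded the 2NF effect by 1.35 ± 0.43 (adjusted p = 0.042), and AFB minus NNK was 0.85 (adjusted p = 0.598). After WYE for 72 h Mgmt read 718.7, 1282 and 1369, overlapping with its controls, and the difference of 0.89 passed only with the block (adjusted p = 0.218 without it and 0.0423 with it).

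The promoter windows of Mgmt and of 2 further genes the results turn on, Xrcc1 and Msh3, are shown from 250 bases before to 50 after the gene start, from RefSeq (GRCr8, 5′ to 3′ on the gene's strand). Msh3 and Polb met a rule, a call in the mean of both times for both AFB and NNK, and the table used here holds no entry for Polb. Xrcc1 and Mgmt were added after their values were seen. Capitals mark matches to the GC box GGGCGG on either strand.
Mgmt, chr1:201140582-201140881, + strand: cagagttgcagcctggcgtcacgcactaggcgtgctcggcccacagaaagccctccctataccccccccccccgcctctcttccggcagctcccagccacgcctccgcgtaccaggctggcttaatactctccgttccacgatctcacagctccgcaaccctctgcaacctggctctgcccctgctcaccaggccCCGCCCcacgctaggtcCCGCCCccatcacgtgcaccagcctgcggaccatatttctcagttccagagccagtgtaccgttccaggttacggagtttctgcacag
Xrcc1, chr1:89268939-89269238, + strand: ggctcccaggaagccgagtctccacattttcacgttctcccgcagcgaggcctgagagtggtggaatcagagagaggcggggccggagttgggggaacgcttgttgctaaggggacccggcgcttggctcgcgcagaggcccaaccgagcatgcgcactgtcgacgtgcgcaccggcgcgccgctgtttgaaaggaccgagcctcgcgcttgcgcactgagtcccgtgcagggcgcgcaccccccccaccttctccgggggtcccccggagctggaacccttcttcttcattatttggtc
Msh3, chr2:25320808-25321107, - strand: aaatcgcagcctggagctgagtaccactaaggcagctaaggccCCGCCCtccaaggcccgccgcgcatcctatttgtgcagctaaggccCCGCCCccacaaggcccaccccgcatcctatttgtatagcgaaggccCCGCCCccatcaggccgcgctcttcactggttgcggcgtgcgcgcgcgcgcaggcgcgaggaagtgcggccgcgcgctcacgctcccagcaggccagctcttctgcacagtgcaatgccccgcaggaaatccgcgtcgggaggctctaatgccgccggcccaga
Mgmt held 2 matches and Msh3 held 3, while Xrcc1 held 0. None of the 3 windows held CCAAT, an E2F core (TTCCCGC or TTGGCGC) or a p53 half-site. The GC box was found in 22 of 34 repair genes with an entry (64.7%), in 57.5% of 11701 promoters of genes on the array and in 33.1% of 33469 promoters in all. A p53 half-site match was found in 5.88% of repair promoters, against 6.8% of promoters of genes on the array. CCAAT stood at 35.3% against 37.3%, and the E2F core at 17.6% against 11.1%. These matches are a description of letters and not of bound sites.

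Base excision repair held the clearest AFB response, in Xrcc1, the scaffold that holds ligase and polymerase at a single-strand break. Xrcc1 read 190.4, 242.3 and 195.6 after AFB for 24 h, against 106.0, 148.8 and 148.5 in controls. After AFB for 72 h it read 228.8, 337.1 and 216.4, against 105.6, 117.2 and 144.5 in controls. Every AFB array lay above every control array at both times. Xrcc1 rose by 0.65 ± 0.17 at 24 h (adjusted p = 0.0163) and by 1.07 ± 0.17 at 72 h (adjusted p = 1.02e-05), a fold of 2.11. Over both times it rose by 0.86 ± 0.12 (adjusted p = 2.41e-07) and by 1.05 without D number 3 (adjusted p = 3.87e-07). With the high-actin arrays left out, which keeps only AFB 24 h replicate 2 and AFB 72 h replicate 1, the difference was 0.99. The 24 h call was lost without control replicate 1 or AFB replicate 2.

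With NNK for 72 h, Xrcc1 read 159.9, 144.7 and 123.1, against 123.9, 86.83 and 84.03 in controls. The lowest NNK array lay just under the highest control array. That difference of 0.55 missed the threshold (adjusted p = 0.0529) and passed it with the replicate block (adjusted p = 0.0182). With 2NF the values were 84.76, 87.01 and 86.16 at 72 h, against 71.74, 80.6 and 85.48 in controls, and the mean of both times was 0.01 (adjusted p = 0.984). The AFB effect on Xrcc1 exceeded that of 2NF by 0.85 ± 0.17 (adjusted p = 0.000452). It was above that of NNK by 0.58 ± 0.17, which was not called over all arrays (adjusted p = 0.182) and was called without D number 3 (0.77, adjusted p = 0.0195).

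Polb, the polymerase that fills the gap in base excision repair, has a pair of probe sets that did not move together. Probe set 1368341_at read 250.6, 207.6 and 195.1 after AFB for 24 h, against 139.6, 153.2 and 147.6 in controls, without overlap. After 72 h of AFB it read 161.9, 371.1 and 271.7, against 158.2, 159.9 and 204.2 in controls, with overlap. Over both times it rose by 0.56 ± 0.14 (adjusted p = 0.00386, and 0.63 with adjusted p = 0.00321 without D number 3), a call lost without AFB 72 h replicate 2. With NNK for 72 h the same probe set read 370.0, 447.8 and 413.3, against 208.9, 297.3 and 250.5 in controls, and rose by 0.71 ± 0.20 (adjusted p = 0.0264). The NNK groups did not overlap, yet the call held in only 1 of the 6 fits with an array left out. The NNK mean of both times was 0.45 ± 0.14 (adjusted p = 0.0376), held in 4 of 12 such fits.

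The other Polb probe set, 1387142_at, carried the strongest fall of any repair probe set after WYE. It read 62.32, 30.75 and 69.73 after WYE for 72 h, against 110.6, 97.61 and 138.6 in controls, with every WYE array below every control. It fell by 1.16 ± 0.23 on the log2 scale (adjusted p = 0.000573), a call lost without WYE replicate 2, and had a mean of both times of -0.75 ± 0.16 (adjusted p = 0.0014, and -0.65 with adjusted p = 0.0304 without D number 3). The first Polb probe set read 154.8, 280.1 and 237.2 in those WYE arrays, which overlapped with its controls. In AFB the second probe set had a mean of both times of -0.30 (adjusted p = 0.265), against 0.56 in the first. With CND the first was 0.52 and the second -0.55 over both times, neither called without the block (adjusted p = 0.0628 and 0.102) and both called with it (adjusted p = 0.015 and 0.0213). What sets the probe sets apart is not known from the files.

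Among the glycosylases, which cut out single altered bases, Ung removes uracil from DNA. Ung read 210.7, 204.4 and 280.9 after WYE for 24 h, against 171.5, 165.5 and 69.46 in controls. After WYE for 72 h it read 225.4, 316.2 and 174.8, against 105.1, 151.7 and 98.19 in controls. The WYE arrays lay above the controls at both times, and at 24 h the low control array, replicate 3, was of D number 3. Ung rose by 1.00 ± 0.25 at 72 h (adjusted p = 0.00747), a call lost without WYE replicate 2, and the 24 h difference of 0.87 was called only with the block (adjusted p = 0.172 without it and 0.0363 with it). The mean of both times was 0.94 ± 0.18 (adjusted p = 0.000264), and 0.69 without D number 3 (adjusted p = 0.00268).

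Ung was also high with 2NF, at 222.2, 269.0 and 268.4 at 24 h, against 135.5, 159.2 and 141.7 in controls. These groups did not overlap, and the difference of 0.80 was called only with the block (adjusted p = 0.114 without it and 0.0232 with it). At 72 h Ung read 209.9, 171.7 and 208.7 with 2NF, against 141.5, 148.0 and 173.7 in controls, and the lowest 2NF array lay under the highest control. The 2NF mean of both times was 0.57 (adjusted p = 0.0585, and 0.0106 with the block). In AFB Ung read 80.45, 125.7 and 77.5 at 24 h and 86.63, 106.6 and 87.59 at 72 h. The AFB mean was -0.38 (adjusted p = 0.176), and -0.57 without D number 3 (adjusted p = 0.00416). The AFB effect lay below the 2NF effect by 0.95 (log2 difference -0.95 ± 0.25, adjusted p = 0.0106).

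Mpg, which removes alkylated purines, read 131.9, 94.35 and 56.93 after AFB for 24 h, against 72.25, 63.67 and 41.34 in controls. After AFB for 72 h it read 52.33, 141.7 and 135.4, against 56.46, 61.72 and 104.7 in controls. The groups overlapped at both times. The mean of both times was called at 0.56 ± 0.19 (adjusted p = 0.0409, and 0.63 with adjusted p = 0.00501 without D number 3), but in only 5 of 12 fits with an array left out. It was 0.15 without the arrays of high actin ratio, which keeps only AFB 24 h replicate 2 and AFB 72 h replicate 1.

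Tdg, which removes thymine from mismatches with guanine, read 228.3, 270.7 and 226.6 after NNK for 24 h, against 232.8, 177.7 and 172.4 in controls. After NNK for 72 h it read 279.6, 233.5 and 247.4, against 176.7, 202.4 and 190.5 in controls. Only the 72 h groups were free of overlap. Its mean of both times was 0.37 ± 0.12 (adjusted p = 0.0476), called in 2 of 12 fits with an array left out. Ogg1, which removes oxidised guanine, and Neil1, a further glycosylase for oxidised bases, were not called with any compound, with AFB means of 0.07 (adjusted p = 0.8) and 0.32 (adjusted p = 0.234). Neil1 was called with the block in the WYE mean (0.37, adjusted p = 0.145 without it and 0.0482 with it) and in the CND mean (0.50, adjusted p = 0.146 and 0.0326).

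Apex1, the endonuclease that cuts the strand at a lost base, read 367.4, 409.0 and 484.4 after WYE for 24 h, against 294.5, 332.8 and 192.8 in controls. After WYE for 72 h it read 307.2, 612.1 and 454.8, against 276.6, 319.0 and 355.6 in controls. The groups overlapped at 72 h only. The mean of both times was 0.57 ± 0.13 (adjusted p = 0.0019), and 0.43 without D number 3 (adjusted p = 0.0664). Single times were called only with the block, at 0.65 for 24 h (adjusted p = 0.134 without it and 0.0446 with it) and 0.48 for 72 h (adjusted p = 0.09 and 0.0398). The CND mean of both times was also called only with the block (0.42, adjusted p = 0.102 without it and 0.0356 with it). Its second probe set did not pass the filter.

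Parp1, the sensor of strand breaks that builds poly(ADP-ribose), read 281.6, 368.5 and 297.6 after AFB for 24 h, against 471.1, 406.8 and 335.9 in controls. At 72 h it read 417.4, 241.0 and 274.4 with AFB, against 583.4, 417.0 and 297.8 in controls. The groups overlapped at both times, and the mean of both times was -0.41 ± 0.14 (adjusted p = 0.0559, and -0.54 with adjusted p = 0.0062 without D number 3). Parp2, its relative, was called only in the WYE mean with the block (0.25, adjusted p = 0.0841 without it and 0.0449 with it). No call fell on Lig1 and Lig3, the ligases that seal the strand, or on the flap endonuclease Fen1, in any comparison with controls over all arrays. Without D number 3, Lig3 was lower with WYE for 72 h on both probe sets (-0.45, adjusted p = 0.0266, and -0.68, adjusted p = 0.0149), against -0.26 and -0.34 over all arrays. In the AFB mean without D number 3, Lig3 1374010_at was -0.25 (adjusted p = 0.0499) and Lig1 1379195_s_at 0.74 (adjusted p = 0.0494), against -0.19 and 0.17 over all arrays. The 11 probe sets of these strand processing genes had a median of -0.06 in the AFB mean of both times and ranged from -0.41 to 0.86.

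**Figure D3:**
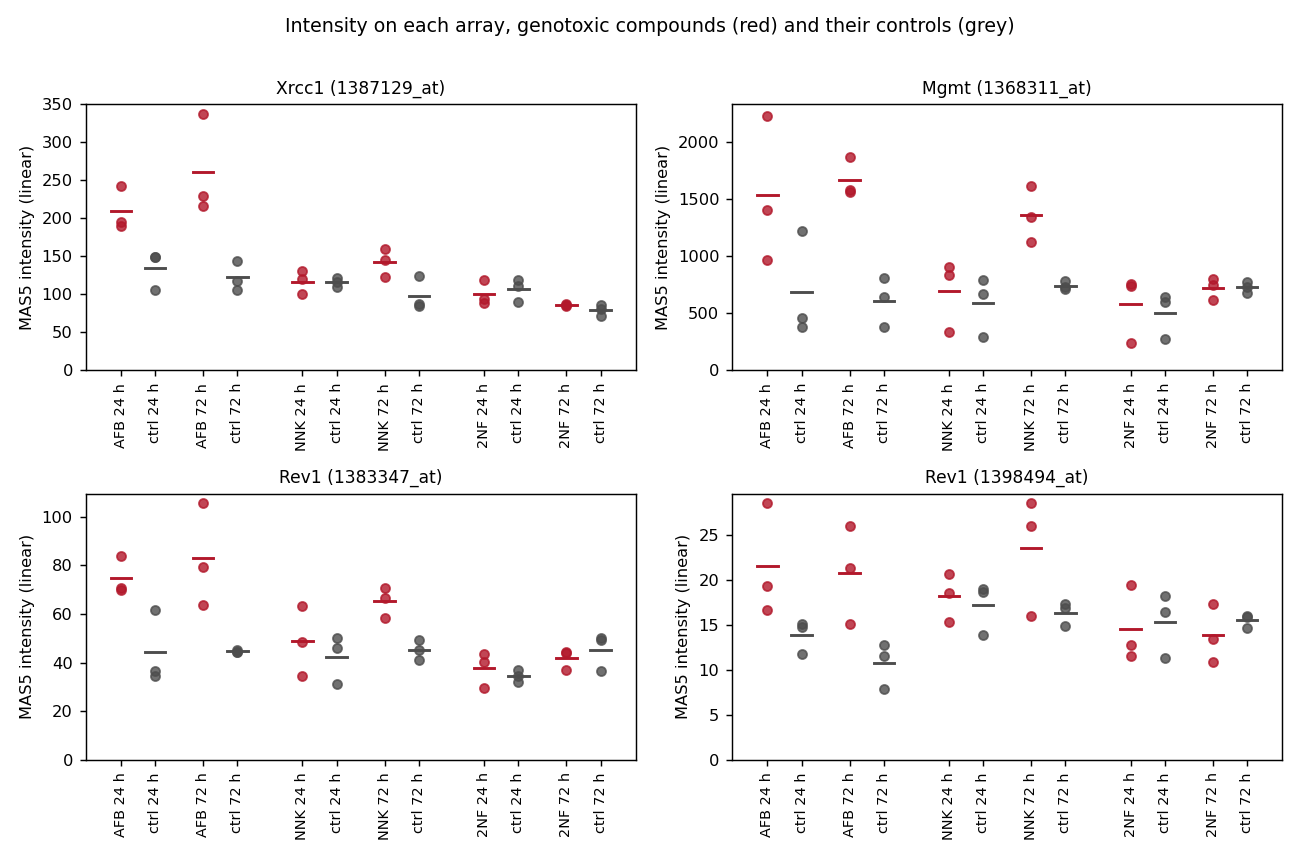
Intensity on each array (linear axis) of Xrcc1, Mgmt and both Rev1 probe sets for AFB, NNK and 2NF (red) beside their controls (grey) at 24 h and 72 h, with lines at the group means. Xrcc1 and the Rev1 probe set 1383347_at stand above the controls on every AFB array at both times, and the 2NF arrays overlap with their controls.

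Nucleotide excision repair removes bulky adducts such as those of aflatoxin and of nitroarenes. None of its 14 probe sets of 10 genes was called with AFB or NNK, at either time or in the mean over all arrays, and the medians were -0.00 at 24 h and -0.01 at 72 h of AFB. Without D number 3, Xpc fell with AFB at 72 h (-0.58, adjusted p = 0.0444, against -0.42 over all arrays), as it did with the block (adjusted p = 0.0425). In the AFB mean without D number 3, Ercc1, part of the nuclease that cuts beside the lesion, was 0.38 (adjusted p = 0.0318), and Ddb1, the partner of Ddb2, was -0.50 on probe set 1399162_a_at (adjusted p = 0.0345), against 0.26 and 0.16 over all arrays. The Ddb1 probe set 1371648_at, at 0.22 in the AFB mean, was called only with the block (adjusted p = 0.0409). The 14 ranged from -0.58 to 0.34 and from -0.67 to 0.41 at those times. Ddb2, a damage sensor that p53 induces in human cells, read 42.85, 39.26 and 43.08 on probe set 1380568_a_at after AFB for 24 h, against 42.81, 40.84 and 31.95 in controls. After AFB for 72 h it read 37.33, 34.34 and 37.92, against 39.95, 51.53 and 38.46 in controls. The differences were 0.12 (adjusted p = 0.87) and -0.23 (adjusted p = 0.589), and the second Ddb2 probe set had an AFB mean of -0.28 (adjusted p = 0.542).

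Xpc, which finds the distorted helix and starts excision, was the called gene of this group. After WYE for 72 h it read 221.8, 212.8 and 193.7, against 365.2, 355.0 and 260.6 in controls, with no overlap, and fell by 0.63 ± 0.17 on the log2 scale (adjusted p = 0.0124). That call held in 3 of 6 fits with an array left out and without D number 3 (-0.73, adjusted p = 0.0137). With 2NF Xpc read 193.2, 165.7 and 187.4 at 24 h, against 271.2, 217.5 and 251.6 in controls, and 183.1, 243.6 and 216.1 at 72 h, against 255.6, 293.8 and 271.3 in controls. Every 2NF array lay below its controls at both times, where 23.2% and 22.4% of all probe sets were free of overlap. Neither time was called alone, and the mean of both times was -0.40 ± 0.12 (adjusted p = 0.0473), held in 2 of 12 fits with an array left out. At 24 h of WYE, Xpc read 300.7, 356.8 and 234.5, against 294.4, 330.6 and 270.7 in controls, with overlap, and the WYE mean of both times was called only with the block (-0.33, adjusted p = 0.0713 without it and 0.0157 with it).

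Rad23b, the partner of Xpc, differed widely between the experiments. Its probe set 1391491_a_at read 56.6, 301.6 and 94.21 after AFB for 24 h, against 331.1, 346 and 19.67 in controls. At 72 h it read 215.2, 67.44 and 76.55 with AFB, against 280.1, 333.6 and 47.48 in controls. In both control groups replicate 3, of D number 3, was far below the others. The AFB mean was -0.41 over all arrays (adjusted p = 0.657) and -1.36 without D number 3 (adjusted p = 0.000191). Probe set 1388550_at of Rad23b had an AFB mean of -0.12 (adjusted p = 0.634), and -0.37 without D number 3 (adjusted p = 0.00535).

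Mismatch repair held the one repair gene that was called with 4 compounds, Msh3, which takes part in finding looped-out bases. Its probe set read 25.45, 27.21 and 25.5 after NNK for 24 h, against 55.5, 35.8 and 42.6 in controls. After NNK for 72 h it read 25.85, 19.48 and 27.89, against 34.52, 37.73 and 45.53 in controls. All NNK arrays lay below all of their controls. Single times were not called (-0.75, adjusted p = 0.135, and -0.69, adjusted p = 0.0961), and the mean of both times was -0.72 ± 0.17 (adjusted p = 0.00367), called in all 12 fits with an array left out.

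NIF, which is no carcinogen, gave Msh3 values of 26.41, 17.78 and 34.83 at 24 h, against 49.15, 39.67 and 44.23 in controls. At 72 h they were 16.22, 35.51 and 23.37 with NIF, against 45.6, 43.2 and 38.96 in controls. The groups did not overlap at either time. Msh3 fell by 0.84 ± 0.24 at 72 h on the log2 scale (adjusted p = 0.0362), held in 1 of 6 fits with an array left out. Its mean of both times was -0.82 ± 0.17 (adjusted p = 0.00137), held in all 12.

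With AFB, Msh3 read 37.34, 24.54 and 21.2 at 24 h, against 32.86, 38.25 and 47.5 in controls, with overlap. After 72 h of AFB it read 27.17, 21.11 and 23.2, against 37.76, 35.82 and 47.52 in controls, without overlap. It fell by 0.76 ± 0.24 at 72 h (adjusted p = 0.0497) and had a mean of -0.65 ± 0.17 (adjusted p = 0.00609), which was -0.42 without D number 3 (adjusted p = 0.123). With WYE, sharing those controls, it read 31.63, 21.09 and 17.62 at 72 h, all below the controls, and fell by 0.82 ± 0.24 (adjusted p = 0.0233, and -0.51 with adjusted p = 0.283 without D number 3). The WYE mean of both times was -0.63 ± 0.17 (adjusted p = 0.00956), and -0.47 without D number 3 (adjusted p = 0.201). The Msh3 calls with AFB and WYE were thus lost without D number 3, and the comparisons with NNK and NIF hold no array of it.

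The other compounds left Msh3 near its controls, with means of both times of 0.06 for 2NF (adjusted p = 0.946), -0.05 for PIPB, 0.11 for MPH and -0.30 for CND (adjusted p = 0.535). NNK minus 2NF was -0.78 for Msh3 (adjusted p = 0.065), called with the block (adjusted p = 0.0406).

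Msh6, which takes part in finding single mismatches, read 158.0, 275.0 and 163.9 after AFB for 72 h, against 126.4, 103.3 and 138.7 in controls. The groups did not overlap and replicate 2 of AFB was the high one. Msh6 rose by 0.66 ± 0.16 (adjusted p = 0.00786), a call lost without AFB replicate 2 or control replicate 2, while the 24 h difference was 0.14. The AFB mean of 0.40 ± 0.12 (adjusted p = 0.0157) was 0.53 without D number 3 (adjusted p = 0.00294). It was 0.24 with the high-actin arrays left out, which keeps only AFB 24 h replicate 2 and AFB 72 h replicate 1. NNK gave Msh6 differences of 0.37 at 24 h (adjusted p = 0.449) and 0.00 at 72 h. Pms2, a mismatch repair endonuclease, was not called with any compound.

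Double-strand break repair was led by Nbn, which brings the Mre11 and Rad50 nuclease complex to a break. Nbn read 398.0, 505.9 and 477.5 after 2NF for 24 h, against 207.8, 275.6 and 266.2 in controls. After 2NF for 72 h it read 448.0, 478.0 and 470.4, against 296.5, 376.9 and 280.9 in controls. Every 2NF array lay above every control at both times. Nbn rose by 0.89 ± 0.17 at 24 h (adjusted p = 0.00127), a fold of 1.85, and over both times by 0.72 ± 0.12 (adjusted p = 6.24e-05), held in all 12 fits with an array left out. The 72 h difference of 0.56 was called only with the block (adjusted p = 0.149 without it and 0.0441 with it). In the same 2NF arrays 1 of 14 macrophage markers was higher at each time (medians -0.61 and -1.07), and their part in the 2NF results was not tested.

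Nbn also rose with WYE. WYE for 72 h gave 458.8, 450.4 and 491.1, against 221.9, 276.8 and 296.0 in controls, with a wide gap between the groups. At 24 h it read 273.8, 261.2 and 385.3 with WYE, against 246.2, 268.5 and 336.2 in controls, with overlap. The rise at 72 h was 0.83 ± 0.17 (adjusted p = 0.00109, and 0.88 with adjusted p = 0.00305 without D number 3), held in all 6 fits with an array left out. With AFB the mean of both times was 0.05 (adjusted p = 0.863) and with NNK 0.22 (adjusted p = 0.344). AFB minus 2NF was -0.68 ± 0.17 (adjusted p = 0.0087), and -0.50 without D number 3 (adjusted p = 0.0552).

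Rad50, a structural partner of Nbn, had 2 probe sets in the tests and no call. Its highest value was with MPH for 24 h, at 1.05 on probe set 1387427_at (adjusted p = 1). Xrcc5 and Xrcc6, the Ku subunits that hold broken ends, were not called against controls over all arrays. Without D number 3, Xrcc5 1378834_at was lower in the AFB mean (-0.72, adjusted p = 0.0267, against -0.53 over all arrays). AFB minus 2NF for it was -1.05 (adjusted p = 0.115, and 0.00851 with the block). The probe sets of Brca1 and Brca2, which act in homologous recombination, did not pass the filter, with medians over all arrays of 5.907 and 3.095. Brca1 read 0.5322, 6.125 and 3.613 after AFB for 24 h, against 4.791, 3.452 and 4.409 in controls, values near the floor from which no change can be read.

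**Figure D4:**
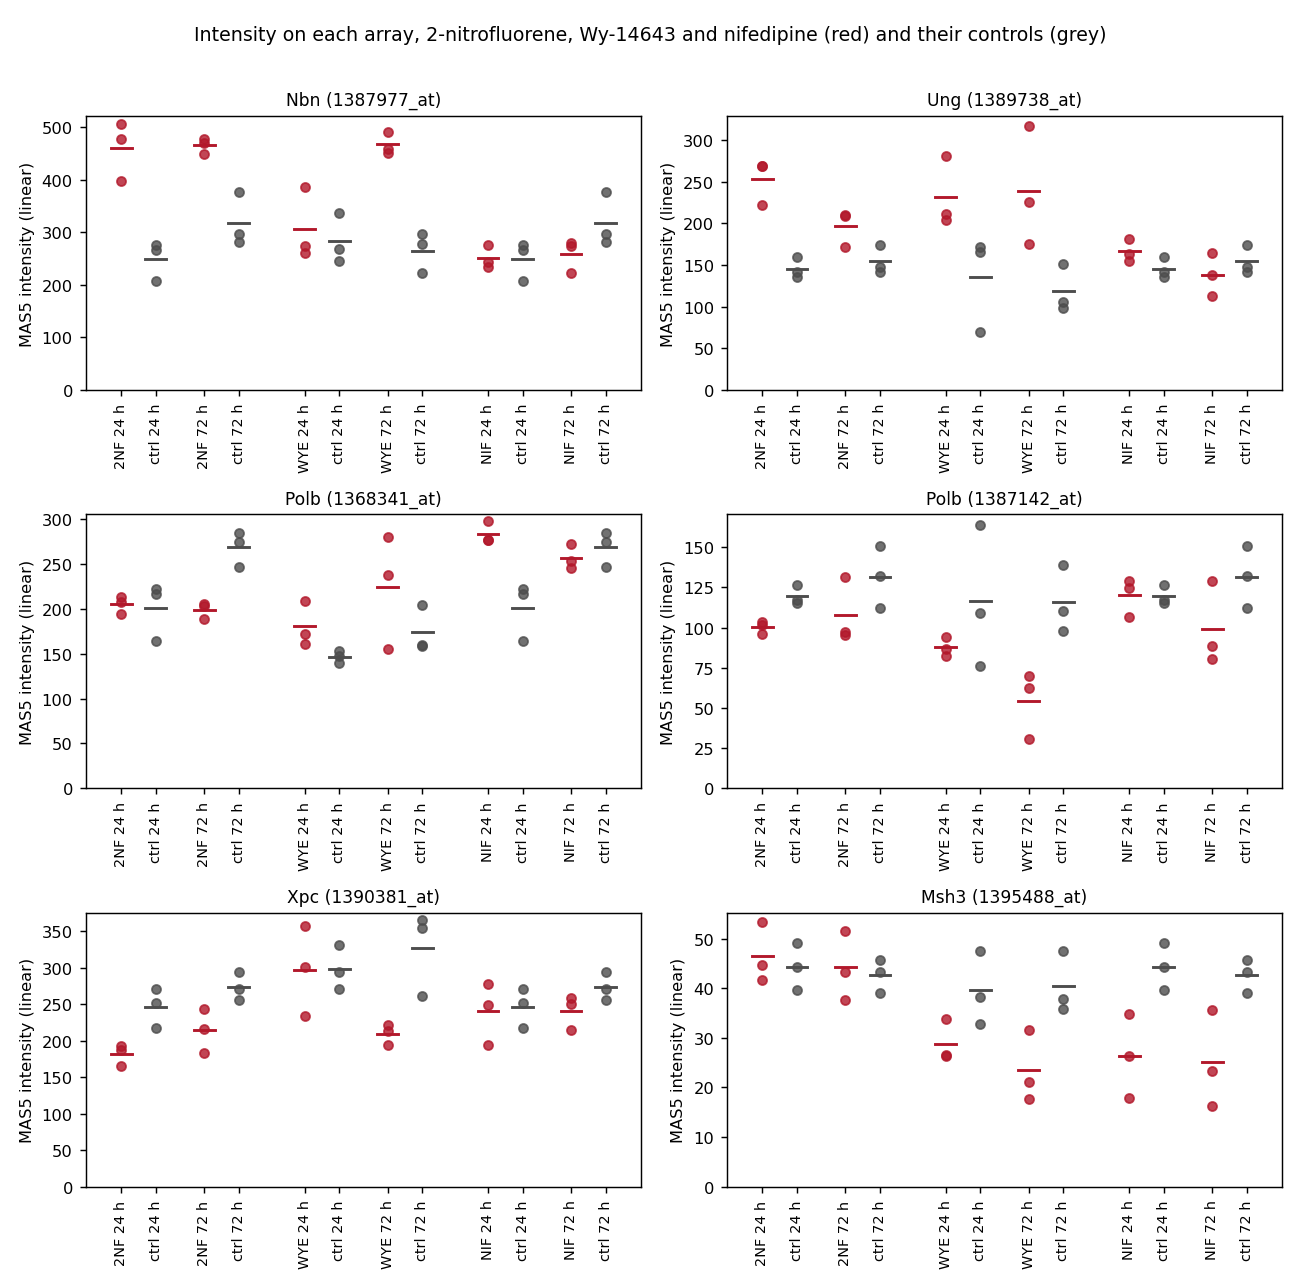
Intensity on each array (linear axis) of Nbn, Ung, both Polb probe sets, Xpc and Msh3 for 2NF, WYE and NIF beside their controls at 24 h and 72 h, with lines at the group means. Nbn stands above the controls with 2NF at both times and with WYE at 72 h, and Msh3 stands below them with NIF at both times.

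The damage kinases were low on these arrays. Chek1, which halts the cycle when replication stalls, had an AFB mean of -0.20 (adjusted p = 0.615), a 2NF difference of 0.74 at 24 h (adjusted p = 0.241) and one of -0.73 with NIF at 72 h (adjusted p = 0.14). Its NIF mean of both times was called only with the block (-0.59, adjusted p = 0.0784 without it and 0.0445 with it). Chek2, which Atm activates at breaks, read 3.451, 4.906 and 4.671 after AFB for 24 h, against 11.91, 7.52 and 7.808 in controls. At 72 h it read 12.96, 7.955 and 0.5687 with AFB, against 18.35, 9.988 and 10.93 in controls, with overlap and with 1 AFB array at the floor. The AFB mean of both times was -0.96 ± 0.34 (adjusted p = 0.0598, and -0.81 with adjusted p = 0.0328 without D number 3).

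Lesion bypass showed an AFB response in Rev1, a transferase that inserts cytosine opposite a damaged guanine and gathers other bypass polymerases. Probe set 1383347_at read 83.91, 70.65 and 69.87 after AFB for 24 h, against 36.6, 34.45 and 61.71 in controls. After AFB for 72 h it read 63.52, 105.7 and 79.5, against 45.15, 44.34 and 44.5 in controls. The groups were apart at both times. Rev1 rose by 0.80 ± 0.19 at 24 h (adjusted p = 0.00597) and by 0.86 ± 0.19 at 72 h (adjusted p = 0.00188). Over both times it rose by 0.83 ± 0.13 (adjusted p = 5.84e-06), and by 1.00 without D number 3 (adjusted p = 5.07e-06). The 24 h call was lost without control replicate 1 or 2 and the 72 h call without AFB replicate 2.

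The second Rev1 probe set, 1398494_at, was at or above the filter value in only 3 of the 24 groups, AFB 24 h, AFB 72 h and NNK 72 h. It thus entered the tests through groups where it is high, and its values are a description. It read 26.06, 21.33 and 15.1 after AFB for 72 h, against 11.52, 12.74 and 7.934 in controls, and 19.35, 16.7 and 28.57 at 24 h, against 14.84, 15.15 and 11.74 in controls. The AFB difference was 0.95 at 72 h, and the mean of both times was 0.78, or 0.61 without D number 3. With NNK for 72 h the first probe set read 66.62, 70.66 and 58.44, against 41.12, 45.2 and 49.15 in controls. All NNK arrays were above the controls, and the difference of 0.53 was not called (adjusted p = 0.111).

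Polh, the polymerase that copies past ultraviolet lesions, read 17.57, 62.59 and 20.05 after AFB for 24 h, against 18.95, 26.48 and 11.23 in controls, with overlap. At 72 h it read 45.31, 45.22 and 23.73 with AFB, against 20.87, 17.12 and 13.97 in controls, without overlap. It passed the filter through 5 groups, of which 4 were AFB or NNK groups, and its AFB mean of both times of 0.88 was not called. Rad18, the ligase that marks the sliding clamp for bypass, had an AFB mean of 0.23 (adjusted p = 0.641). With NIF for 72 h Rad18 read 9.66, 13.8 and 17.06, against 27.89, 32.86 and 26.85 in controls, all NIF arrays below. That difference of -1.15 ± 0.35 was called only with the block (adjusted p = 0.0587 without it and 0.0179 with it). Polk did not pass the filter, with values of 4.637, 1.04 and 1.719 after AFB for 24 h, against 9.969, 0.4037 and 1.307 in controls.

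Taking both times as one mean, AFB had 7 rises and 1 fall among the 46 probe sets, where 10.9% of all were called, or 6 rises without Rev1 1398494_at. NNK had 2 rises and 1 fall (5.83% of all) and 2NF 1 of each (3.36% of all). WYE had 3 rises and 2 falls (9.67% of all), or 8 calls with the block (16.2% of all), and NIF 1 fall (4.59% of all), or 2 with the block (8.34% of all). With the high-actin arrays left out, NNK, 2NF and NIF had 5 calls each (13.5%, 7.67% and 10.7% of all). No AFB count is given for that fit, which keeps only AFB 24 h replicate 2 and AFB 72 h replicate 1. In limma, PIPB, MPH and CND had 0 calls, with 0, 3 and 8 probe sets at an unadjusted p under 0.05 and 0.0499%, 0.00554% and 0.526% of all called. The unadjusted counts were 0%, 6.52% and 17.4% of the repair probe sets, against 3.31%, 3.48% and 11.1% of all. With the block CND had 4 (2.13% of all).

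Tests of the differences between compounds separated AFB from 2NF most. The AFB arrays were of D numbers 1 to 3, and those of 2NF and NNK of D numbers 7 to 9. Each effect was taken against its own controls, yet differences of AFB from 2NF or NNK and differences between those experiments cannot be told apart. AFB minus 2NF gave 6 higher and 2 lower repair probe sets, where 7.15% of all were called, the higher ones being Mgmt, Xrcc1, Polb 1368341_at, Msh6, Rev1 1383347_at and Rev1 1398494_at and the lower ones Ung and Nbn. The last Rev1 probe set was chosen by the filter through its AFB groups and leaves 5 higher without it. Of the 14 macrophage markers 6 were called higher in AFB minus 2NF, and their part in these differences was not tested. AFB minus NNK gave 0 calls in limma (0.0776% of all, 6 at an unadjusted p under 0.05) and 2 without D number 3 (2.59% of all), Xrcc1 and Rad23b 1391491_a_at. NNK minus 2NF gave 0 calls (2.49% of all, 5 unadjusted) and 4 with the block (4.64% of all), which were Polb 1368341_at, Msh3, Ung and Nbn. Unadjusted, the repair share was 13% for AFB minus NNK (8.48% of all) and 10.9% for NNK minus 2NF (12.9% of all). The genotoxic minus the non-genotoxic carcinogens gave 3 higher probe sets, where 5.03% of all were called.

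They were Xrcc1 (0.45 ± 0.08, adjusted p = 6.02e-05), Rev1 1383347_at (0.42 ± 0.09, adjusted p = 0.000988) and Rev1 1398494_at, which passed the filter only through genotoxic groups and supports nothing here. With the block there were 8 (8.95% of all), with Mgmt higher and Ung, Apex1, Parp1 and Chek2 lower. Chek2 passed the filter through 4 groups, 2 of controls and the treated groups MPH 72 h and PIPB 72 h. Its lower value in the genotoxic compounds thus supports nothing here. The genotoxic compounds were not alike in these genes, since the mean of both times for Xrcc1 was 0.86 with AFB and 0.01 with 2NF, a difference called above. A change of effect between 24 h and 72 h was called in limma for 0 repair probe sets with AFB (0% of all), NNK (0.0277% of all) or 2NF (0.00554% of all), with 2, 1 and 3 at an unadjusted p under 0.05. Those were 4.35%, 2.17% and 6.52% of the repair probe sets, against 2.43%, 4.84% and 3.88% of all.

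Some repair genes differed with culture time in control cells, at a share (15.2%) below that of all probe sets. In the same comparison the bile duct marker Krt7 (4.15) and the proliferation gene Mki67 (2.09) were higher. The endothelial marker Pecam1 (-2.07) was lower, and the part of such shifts was not tested. Over the control sets of MPH, NNK and 2NF, 3 probe sets were higher and 4 lower at 72 h than at 24 h, where 21.8% of all probe sets were called, and 13 of 46 were called with the block, where 29.6% of all were. Msh6 (0.31), Polb 1368341_at (0.30) and Chek1 (0.50) rose, and Mpg (-0.51), Neil1 (-0.35), Ddb2 1380568_a_at (-0.32) and Xrcc1 (-0.29) fell. Xrcc1 thus moved down with culture time and up with AFB at both times.

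The 70 measured genes of 105 on lists of further repair and signalling genes included stronger responses than the 41. These lists were chosen with earlier results of these data known, so that is a description and no independent result. Each gene on them entered through its probe set of highest mean, while the 41 were counted over all kept probe sets. For AFB 5 rose and 1 fell at 24 h (3.33% of all probe sets) and 6 rose at 72 h (4.91%), and for NNK 1 rose and 1 fell at 24 h (0.92%) and 3 rose at 72 h (3.32%). With WYE at 72 h 2 rose and 2 fell (7.31%), with NIF at 72 h 3 fell (3.18%), and over both times WYE had 4 rises and 2 falls (9.67%). For 2NF none was called at either time in limma. Lig4, the ligase of end joining, read 169.6, 223.4 and 258.3 after AFB for 24 h, against 49.57, 67.57 and 91.87 in controls. After NNK for 24 h it read 137.1, 166.0 and 211.6, against 63.43, 74.08 and 71.1 in controls. With no overlap, Lig4 rose over both times by 2.00 ± 0.16 with AFB (adjusted p = 3.97e-14) and by 1.45 ± 0.16 with NNK (adjusted p = 4.98e-09), and was 0.02 with 2NF (adjusted p = 0.981).

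Nhej1, which stimulates Lig4, read 116.1, 172.1 and 94.87 after AFB for 72 h, against 13.09, 15.85 and 11.71 in controls. After NNK for 72 h it read 180.0, 125.9 and 98.98, against 29.99, 20.75 and 20.37 in controls. The groups did not overlap at 72 h. After NNK for 24 h Nhej1 read 34.33, 87.88 and 147.8, against 24.21, 39.82 and 33.29 in controls, which overlapped and was not called (1.27, adjusted p = 0.294). The mean rise was 2.83 ± 0.34 with AFB (adjusted p = 7.96e-09) and 1.88 ± 0.34 with NNK (adjusted p = 0.00015), against 0.21 with 2NF (adjusted p = 0.884). Nhej1 was also called in the WYE mean of both times (1.01 ± 0.34, adjusted p = 0.0483). NNK minus 2NF was called for both Lig4 (1.42, adjusted p = 2.68e-05) and Nhej1 (1.67, adjusted p = 0.0436). Prkdc, the kinase of end joining, fell with NNK over both times by 0.58 ± 0.11 on the log2 scale (adjusted p = 0.000438).

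**Figure D5:**
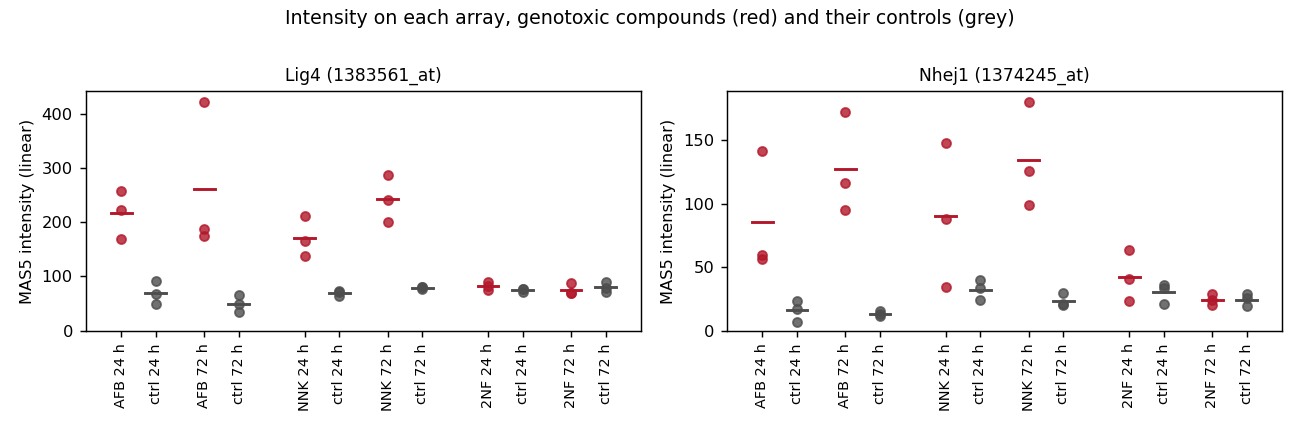
Intensity on each array (linear axis) of the end joining genes Lig4 and Nhej1 for AFB, NNK and 2NF (red) beside their controls (grey) at 24 h and 72 h. The AFB and NNK arrays of Lig4 lie above their controls and the 2NF arrays lie among theirs.

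Other repair genes called over both times with AFB included the glycosylase Nthl1 (0.94 ± 0.16, adjusted p = 1.42e-05), the kinase Cdk7 of the excision repair factor TFIIH (0.82, adjusted p = 1.61e-06), the single-strand binding subunit Rpa1 (0.59, adjusted p = 9.58e-05) and the bypass polymerase subunit Rev3l (0.49, adjusted p = 0.00679). Ercc4, on the list of nucleotide excision, was also higher (0.43, adjusted p = 0.0365). Fancl, on that of double-strand breaks and crosslinks, was lower (-0.29, adjusted p = 0.0477). Topbp1, an activator of the damage kinase Atr, was lower (-0.74, adjusted p = 0.00459), and was lower with WYE too (-0.99 over both times, adjusted p = 0.000232). Rpa1 fell with WYE (-0.50, adjusted p = 0.00185) and with NIF (-0.49, adjusted p = 0.00417). Of 20 measured targets of p53, 13 rose with AFB at each time and 8 and 9 rose with NNK at 24 h and 72 h, while none was called with 2NF or WYE at single times. Their medians were 1.02 and 1.14 with AFB, 0.74 and 0.89 with NNK, and 0.08 and 0.02 with 2NF. The cell cycle inhibitor Cdkn1a had means of 1.41 with AFB, 1.41 with NNK and 0.04 with 2NF.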

How the data were processed

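Messenger RNA was measured on 72 single-colour arrays, 3 in each of 24 groups. The deposited values are intensities on a linear scale, computed with MAS5 per the submitters' processing notes and scaled so that the mean after trimming 2% at each end was 99.94 to 99.95 on every array. MAS5 normalises each array alone, so a change shared by most probe sets would not show.

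Values were floored at the 20th percentile (3.117) and taken to log2. Leaving out 57 control probe sets, 18048 of 31099 probe sets with a group mean of at least 19.74, the median, entered the fit. Of the 46 repair probe sets kept, 36 had every group at or above that value and 10 had some below. Group means were fitted in limma 3.58.1 (R 4.3.3) with an intensity trend and 48 residual degrees of freedom, and the fit was tested on simulated data. P-values set each difference against the spread of arrays within groups, pooled over all groups for each probe set. That spread is thus not that of the compared groups alone. The main fit treated arrays of the same D number as independent, across compounds and times. Any link between such arrays is not allowed for in its p-values, those for the mean of both times included.

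The repair genes, their roles and the other lists were chosen with earlier results of these data known. Genes named were every repair gene called in any comparison of a compound with its control, 12 more such as Ddb2 and Parp1 whether called or not, and up to 4 called genes of each other list. Rad23b and genes called only in another setting were named after their values were seen. Same-numbered samples deviated together (all 3 correlations over 0.1) in 14 of 16 comparisons, all but those of AFB. The main fit did not pair them. The replicate number entered as a block only in an alternative fit, over all arrays and those of AFB too. Alternatives changed the floor, pseudocount, filter, normalisation, trend, block, actin ratio and arrays used.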

Additional observations from a re-analysis of the deposited data

Results flagged for a closer look

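In a pair of cases every array of a compound moved one way at 24 h and the other way at 72 h relative to its controls' mean. Msh6 was -0.19 after WYE for 24 h and 0.22 after WYE for 72 h on the log2 scale, a gap of 0.411 between the times. Rev1 1383347_at was -0.23 after MPH for 24 h and 0.20 after MPH for 72 h, a gap of 0.438. The difference between the times was not tested for either, and the D number 3 arrays are among those of WYE.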

How the results depend on the processing

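No repair call over all arrays changed direction under other settings or with an array left out. Of the 1692 and 2370 results compared, 1519 and 2057 stayed the same. These totals hold more than those calls, so they do not give the share of calls that held. With the replicate number as a block, calls (with the share of all probe sets called in the same fit) were 4 for AFB 24 h (6.21%), 2 for NNK 72 h (7.18%), 2 for 2NF 24 h (3.27%), 1 for 2NF 72 h (1.69%), 2 for WYE 24 h (0.56%), 2 for NIF 72 h (7.78%), 8 for WYE mean (16.2%), 2 for NIF mean (8.34%), 4 for CND mean (2.13%), 4 for NNK minus 2NF (4.64%), 8 for genotoxic minus non-genotoxic carcinogens (8.95%) and 13 for control cells over time (29.6%). The block removed no repair call. Without D number 3 they were 4 for AFB 24 h (4%), 2 for NNK 72 h (7.37%), 2 for 2NF 24 h (3.13%), 2 for NIF 72 h (7.42%), 17 for AFB mean (22.8%), 4 for 2NF mean (6.24%), 3 for WYE mean (4.15%), 2 for NIF mean (8.38%), 2 for AFB minus NNK (2.59%), 3 for NNK minus 2NF (4.72%), 8 for genotoxic minus non-genotoxic carcinogens (10.6%) and 12 for control cells over time (29.4%). Without the high-actin arrays, AFB keeps only replicate 2 at 24 h and replicate 1 at 72 h, so no counts with AFB are given. The other calls were 5 for NNK 72 h (10.7%), 3 for 2NF 24 h (4.37%), 1 for 2NF 72 h (2.33%), 1 for NIF 24 h (2.14%) and 3 for NIF 72 h (9.65%). In the same fit there were 5 calls each for the NNK mean (13.5%), 2NF mean (7.67%) and NIF mean (10.7%). There were 4 for NNK minus 2NF (6.31%) and 15 for control cells over time (33.2%). With the actin ratio as a covariate they were 3 for NNK 72 h and NNK minus 2NF, 2 for NIF 72 h, 1 for the CND mean, 6 for genotoxic minus non-genotoxic and 12 for control cells. Fitted on its own groups, a comparison gave 0 for AFB 24 h, AFB 72 h, WYE 72 h and the WYE mean, 2 for NNK 72 h, 2NF 24 h, NIF 72 h and the AFB mean, 4 for the 2NF mean and NNK minus 2NF, 3 for the NIF mean and AFB minus 2NF, and 12 for control cells, with fewer residual degrees of freedom. With no filter they were 0 for NIF 72 h and 1 for the NNK and 2NF means, and with no intensity trend 1 for the 2NF mean. The stricter filter (104.1), which tests fewer probe sets, gave 1 for AFB 24 h, the CND mean and NNK minus 2NF, 3 for AFB 72 h and control cells, 2 for NNK 72 h, 5 for the AFB mean and 0 for NIF 72 h and the NIF mean. Quantile normalisation gave 3 for NNK 72 h, 0 for NIF 72 h and 1 for NNK minus 2NF, and a pseudocount of 16 gave 1 for NNK minus 2NF. A floor at the 10th percentile moved no count by over 1.5 times. The counts from the actin covariate onwards, and those with 1 array left out, have no share of all probe sets beside them. They thus do not set repair genes apart from the rest. Where the arrays or groups used stayed the same, the cause was not tested.

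Rev1 1398494_at, picked by the filter through its high groups, is in the AFB and genotoxic counts. Chek2, which passed the filter only through MPH, PIPB and control groups, is in the genotoxic counts with the block and without D number 3. With 1 array left out, calls ranged from 0 to 4 for AFB 24 h, 1 to 8 for AFB 72 h, 0 to 1 for NNK 72 h, NIF 24 h, NIF 72 h, the CND mean and NNK minus 2NF, 1 to 1 for 2NF 24 h, 0 to 2 for WYE 24 h, 1 to 9 for WYE 72 h, 5 to 10 for the AFB mean, 1 to 3 for the NNK mean, 1 to 2 for the 2NF and NIF means, 4 to 8 for the WYE mean, 5 to 9 for AFB minus 2NF, 3 to 4 for genotoxic minus non-genotoxic and 2 to 8 for control cells. AFB 72 h fell to 1 without its replicate 2, and WYE 72 h to 1 without its replicate 2 and 9 without its replicate 1. The number of arrays, 3 in a group, limits the precision, and low probe sets such as those of Chek2 and Polh lie close to the floor.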
